A study of Mus musculus with 12 samples.

Results

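The 34 genes described here are those of the integrated stress response and of the amino acid supply that it governs. They were chosen by gene symbol from a list of members. Among the 55487 gene IDs that were counted, 35 carried one of these symbols, because *Ddit3* has a second ID, and 33 of the 35 passed the filter on low counts. *Vldlr*, a lipoprotein receptor, had 0 to 9 counts in a library, and the second *Ddit3* ID had 0 counts in every library, so neither was tested. RNA-seq libraries came from BV2, an immortalised mouse microglial line, in 4 groups of 3: normal glucose medium (NG), normal glucose with CD200Fc (NG+CD200Fc), high glucose medium (HG) and high glucose with CD200Fc (HG+CD200Fc). CD200Fc is the ligand of the inhibitory myeloid receptor CD200R joined to an antibody Fc part, and was given at 50 ng/mL. The glucose concentrations, the time of exposure and the genotype of the cells were not stated in the labels. No group with an Fc control protein or an osmotic control is among the 12 libraries, so the part of CD200 and that of the Fc part cannot be told apart, nor can glucose and osmolarity. All groups are the same line, and nothing in the labels says that the replicates were separate cultures, so the p-values measure the spread between these libraries. The treatment protocol in the labels describes retinas dissected from perfused mice and cell sorting, while the source, cell line and design text name BV2.

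The integrated stress response is set off by kinases that sense amino acid shortage, unfolded protein, double-stranded RNA or heme deficiency and phosphorylate the translation factor eIF2. General translation then falls, while the messenger RNA of *Atf4* is translated better, so the amount of *Atf4* RNA does not show how active the protein is. ATF4 pairs with C/EBP proteins on response elements of genes for amino acid transporters, for the synthesis of serine and asparagine and for mitochondrial one-carbon metabolism. Microglia and macrophages take up more amino acids when they are activated and grow.

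The libraries held 21454087 to 31905649 counts. The 18 microglial and macrophage markers had a summed level in CPM (counts scaled to the library total after TMM normalization) of 8106 to 8561 CPM in NG and 8632 to 10390 in HG, and with CD200Fc 7355 to 8032 in normal and 7196 to 7559 in high glucose. *Csf1r* averaged 934 CPM and *Cd68* 1470 CPM, whereas the homeostatic microglial markers *P2ry12* and *Cx3cr1* averaged 1.68 and 2.68 CPM and *Sall1* had 1 count in all. Of 18 retinal neuron and photoreceptor markers 14 averaged under 1 CPM, and *Crx* and *Grm6* had 0 counts in the 12 libraries. The summed retinal markers came to 53.0 to 58.7 CPM in NG and 46.9 to 49.8 in HG, and with CD200Fc 47.4 to 57.8 in normal and 58.5 to 65.4 in high glucose, of which *Pde6b* made up 32.5 CPM on average. The 13 markers of endothelium, pericytes and pigment epithelium summed to 393 to 408 CPM in NG and 422 to 428 in HG, and with CD200Fc to 389 to 434 in normal and 455 to 517 in high glucose. Nearly all of this sum was *Flt1* (235 CPM on average) and *Vwf* (175 CPM), while 6 of the 13 averaged under 1 CPM and the defining endothelial genes *Cdh5* and *Cldn5* averaged 1.38 and 0.0965 CPM. Müller glia and astrocyte markers summed to 149 to 176 CPM, mostly *Glul*, and lymphocyte and neutrophil markers to 2.31 to 6.02 CPM. The part of these marker shifts in the results below was not tested. The share of counts on rRNA genes was 0.053% to 0.0599% in the 6 normal glucose libraries and 0.0698% to 1.49% in the 6 high glucose libraries, so it moved with glucose, and its part in the results was not tested. HG replicate 2 stood apart at 1.49%, where every other library had 0.119% or less, and counts of calls are also given without it. In such bulk RNA, fewer expressing cells and less RNA per cell cannot be told apart.

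High glucose without CD200Fc went with a lower level of much of the supply side of this programme, and in high glucose CD200Fc went with a higher level of the amino acid transporters and of part of the serine enzymes. The summed level of the members was 4572 to 4748 CPM in NG and 3874 to 4188 in HG, and with CD200Fc 4388 to 4647 in normal and 4605 to 4706 in high glucose. The 3 HG libraries were thus below all others. In HG minus NG, 15 of the 33 tested members fell and 3 rose at an adjusted p under 0.05 (edgeR quasi-likelihood test, Benjamini-Hochberg over all 19182 genes tested). The 3 libraries of each group did not overlap for 21 of 33 members (63.6%), against 39.7% of all genes. Over all genes tested 24.6% were called in this comparison, 12.9% lower and 11.7% higher. Among genes with a mean of at least 10 CPM, where calls are easier to reach, 39.8% were called, against 58.6% of the 29 members at that level. The median log2 fold change was -0.17 over the members and 0.02 over all genes tested. In HG+CD200Fc minus HG, 11 members rose and 1 fell, while 17.8% of all genes tested were called, 9.46% higher and 8.3% lower. At a mean of at least 10 CPM 31.4% of all genes and 41.4% of the members were called, and the median log2 fold change was 0.11 over the members and -0.02 over all genes.

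The response element that ATF4 shares with C/EBP proteins was looked for in RefSeq promoter windows (GRCm38.p6, 250 bases before to 50 after the annotated start), since it is the sequence through which several of the members are known to respond. The letters TGATGNAAN, read on both strands, were in the windows of 8 of the 29 members that had one (27.6%), and in those of 1215 of all 27025 genes with a window (4.5%). The stricter letters ATTGCATCA, whose reverse complement is itself a match of the first motif, were in 2 of 29 members (6.9%) and in 60 of 27025 genes (0.222%). The members are a list of known genes of this pathway, so these shares only describe them. A match is a run of letters and not a shown binding site, and a window with no match says nothing of ATF4. The 8 members were *Asns*, *Trib3*, *Chac1*, *Pycr1*, *Slc1a4*, *Nupr1*, *Vldlr* and *Got1*. *Aldh1l2*, *Slc7a5*, *Slc1a5*, *Eif4ebp1* and *Cth* had no window. The 250 bases upstream of *Asns*, the textbook amino acid response promoter, are shown with the match in capitals, at chr6:7693210-7693459, minus strand, read 5′ to 3′ towards the gene.
Asns: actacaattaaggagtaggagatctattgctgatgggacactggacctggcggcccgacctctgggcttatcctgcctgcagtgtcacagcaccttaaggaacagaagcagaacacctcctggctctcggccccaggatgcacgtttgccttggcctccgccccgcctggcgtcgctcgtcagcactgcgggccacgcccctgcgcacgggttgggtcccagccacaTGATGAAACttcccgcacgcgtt
The same element stands in these members, some with a match on the gene's own strand and some with the reverse complement. Each is shown in the sense of its gene, from chr11:20332700-20332728 for *Slc1a4*, chr19:43524680-43524728 for *Got1*, chr2:119351028-119351076 for *Chac1*, chr11:120643823-120643871 for *Pycr1* and chr7:126625553-126625601 for *Nupr1*.
Slc1a4: tgcctcctgcGTTGCATCAtctccagcct
Got1: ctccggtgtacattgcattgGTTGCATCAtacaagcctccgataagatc
Chac1: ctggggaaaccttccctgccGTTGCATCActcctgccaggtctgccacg
Pycr1: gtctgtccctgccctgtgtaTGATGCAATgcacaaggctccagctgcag
Nupr1: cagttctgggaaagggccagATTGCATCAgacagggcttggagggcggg
*Chac1* is on the plus strand and the others are on the minus strand. Of the 8 members with the element, *Slc1a4*, *Asns* and *Got1* were lower in HG than in NG, *Trib3*, *Chac1*, *Pycr1* and *Nupr1* did not pass that test, and *Vldlr* was not tested.

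Per length of exon, the members spanned a wide range. *Atf4* itself had the highest mean over the 12 libraries at 183 RPKM (CPM per kilobase of exon), followed by *Shmt2* at 167, *Cebpb* at 127, *Psat1* at 94.7 and *Slc38a2* at 74.1 RPKM. *Slc7a5* and *Slc3a2*, which encode the partners of a single heterodimeric transporter, came next at 64.6 and 64.4 RPKM and cannot be ranked against each other. *Asns* stood at 55.7 RPKM. At the low end *Stc2*, a secreted glycoprotein, had 0.764 RPKM, *Cbs*, the first enzyme of transsulfuration, had 0.0615 RPKM with 4 to 27 counts in a library, and *Vldlr* had 0.0181 RPKM.

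The amino acid transporters were the one role in which every tested member passed in the same direction in HG+CD200Fc minus HG. All 7 were higher in HG+CD200Fc than in HG, and 6 of the 7 were lower in HG than in NG. These are 100% and 85.7% of the transporters, against 17.8% and 24.6% of all genes. At a mean of at least 10 CPM 31.4% and 39.8% of genes were called. The median log2 fold changes of the 7 transporters were 0.28 and -0.26 respectively. In HG+CD200Fc minus HG the groups of libraries did not overlap for any of the 7, which was so for 31.3% of all genes. The 2 comparisons share the HG libraries, so their values are given side by side and are not independent.

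*Slc7a5* encodes the light chain of the transporter of leucine and other large neutral amino acids and lies at chr8:121881150-121907694. Its NG libraries held 229, 234 and 246 CPM and its HG libraries 168, 185 and 184, and with CD200Fc there were 240, 262 and 227 in normal and 284, 312 and 303 in high glucose. Every HG library lay below all others and every HG+CD200Fc library above all others. In HG it fell by 0.40 ± 0.059 (log2, SE) against NG, with an adjusted p of 1.54e-05 in the edgeR test. With CD200Fc in high glucose it rose by 0.74 ± 0.059 against HG (adjusted p = 9.44e-10 by edgeR), or 67.1%. Against NG+CD200Fc, HG+CD200Fc was higher by 0.30 ± 0.059 (adjusted p = 0.00334 by edgeR). The last of these calls was lost when the trend of fold changes with exon length and GC content was removed (0.19).

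*Slc3a2*, the heavy chain that carries SLC7A5 to the membrane, held 245, 238 and 244 CPM in NG and 212, 190 and 192 in HG, and with CD200Fc 225, 235 and 238 in normal and 236, 240 and 230 in high glucose. Its log2 fold change was -0.29 ± 0.053 for HG minus NG and 0.25 ± 0.053 for HG+CD200Fc minus HG (adjusted p = 0.000167 and 0.00109 by edgeR). *Slc7a1*, a transporter of arginine and lysine, held 436, 445 and 469 CPM in NG and 388, 389 and 389 in HG, and with CD200Fc 443, 463 and 449 in normal and 466, 485 and 467 in high glucose. For both genes the HG libraries lay below all of the others. *Slc7a1* fell by 0.21 ± 0.049 in HG and rose by 0.28 ± 0.049 with CD200Fc (adjusted p = 0.00205 and 0.00011 by edgeR), and with the length and GC trend removed the fall was larger, at -0.36. *Slc38a2*, a sodium-coupled carrier of small neutral amino acids, held 688, 672 and 700 CPM in NG and 581, 554 and 580 in HG, and with CD200Fc 670, 645 and 692 in normal and 724, 674 and 678 in high glucose. Its HG libraries too were the lowest of the 12. It fell by 0.26 ± 0.049 in HG and rose by 0.28 ± 0.049 with CD200Fc (adjusted p = 0.000246 and 0.000173 by edgeR).

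*Slc1a4*, a carrier of alanine and serine, held 29.8, 28.9 and 32.5 CPM in NG and 26.1, 22.1 and 25.8 in HG, and with CD200Fc 25.9, 25.3 and 29.7 in normal and 30.3, 29.9 and 32.2 in high glucose. *Slc1a5*, a glutamine carrier, held 66.0, 74.3 and 74.9 CPM in NG and 66.3, 59.1 and 63.3 in HG, and with CD200Fc 64.8, 67.9 and 66.8 in normal and 78.8, 76.0 and 74.5 in high glucose. For *Slc1a4* the NG and HG libraries were apart, whereas for *Slc1a5* 1 HG library reached the lowest NG library. *Slc1a4* fell by 0.30 ± 0.088 in HG and rose by 0.32 ± 0.088 with CD200Fc (adjusted p = 0.0125 and 0.0111 by edgeR). *Slc1a5* fell by 0.19 ± 0.063 and rose by 0.28 ± 0.063 (adjusted p = 0.0263 and 0.00175 by edgeR), and with the length and GC trend removed the first value was -0.31. The falls of both were lost without NG replicate 3 (log2 -0.27 for *Slc1a4*, -0.18 for *Slc1a5*) or HG replicate 2 (-0.23, -0.15), and that of *Slc1a5* also without NG replicate 2 (-0.17) or with upper quartile scaling (-0.16). The rise of *Slc1a4* was lost without HG replicate 2 (0.24) or HG+CD200Fc replicate 3 (0.29).

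*Slc6a9*, a glycine transporter, was the one transporter that was not called lower in HG. Its NG libraries held 28.4, 30.8 and 31.1 CPM and its HG libraries 33.5, 33.2 and 33.7, and with CD200Fc there were 31.1, 28.6 and 26.5 in normal and 39.8, 39.9 and 39.7 in high glucose. The HG libraries were above the NG libraries, and the HG+CD200Fc libraries above all others. HG minus NG was 0.15 ± 0.076 and did not pass the edgeR test (adjusted p = 0.15), and it was 0 with the length and GC trend removed. *Slc6a9* was 0.25 ± 0.075 higher in HG+CD200Fc than in HG (adjusted p = 0.0196 by edgeR), a call that was lost without HG+CD200Fc replicate 2 or 3 (0.25 in each case) or with the length and GC trend removed (0.19). Against NG+CD200Fc it was 0.47 ± 0.076 higher (adjusted p = 0.00129 by edgeR), and 0.30 higher with that trend removed. An antisense gene, *Ccdc24*, overlaps 27.8% of its exon bases but had 109 counts in all. With HG replicate 2 left out, 4 transporters were called lower in HG than in NG and 6 higher in HG+CD200Fc than in HG. In that setting 1832 of all genes were called lower in the first comparison and 1557 higher in the second.

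**Figure D1:**
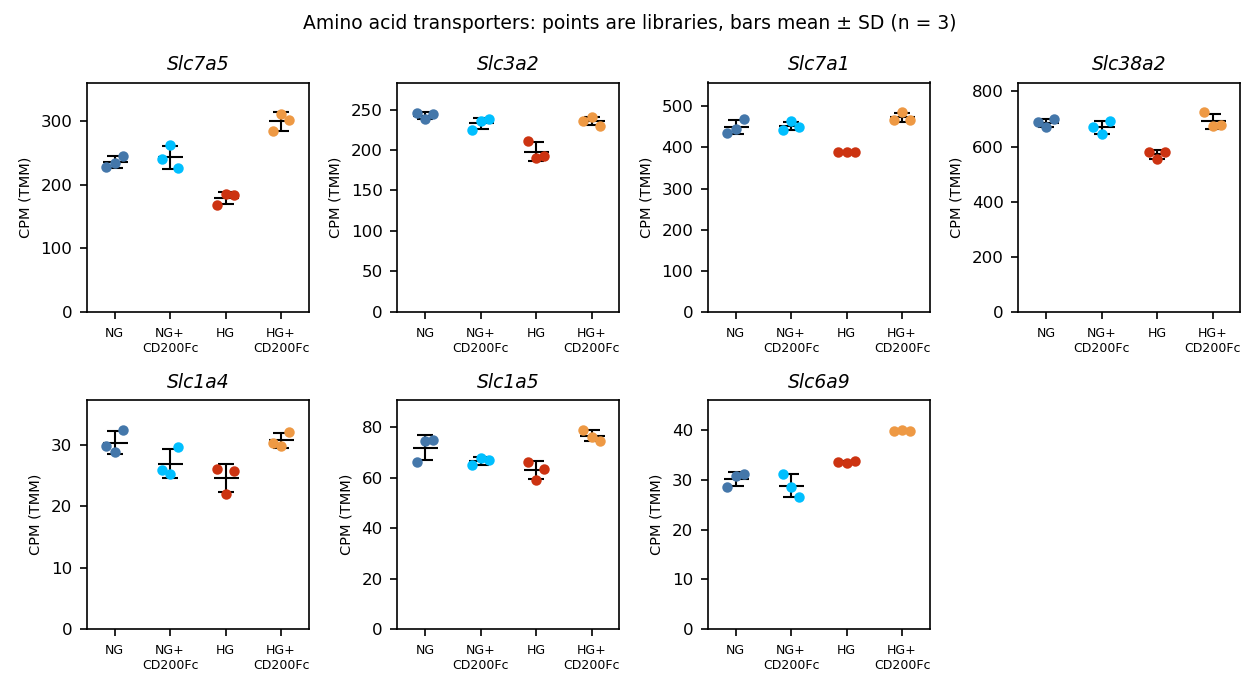
Expression of the 7 transporter genes in CPM on linear axes from 0, with 1 point per library and bars for the mean ± SD of 3 libraries, in the 4 groups. The HG libraries are the lowest for Slc7a5, Slc3a2, Slc7a1 and Slc38a2, and the HG+CD200Fc libraries are the highest for Slc7a5 and Slc6a9.

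Of the 6 serine and one-carbon enzymes tested, 5 were lower in HG than in NG, and 3 were higher in HG+CD200Fc than in HG. These are 83.3% and 50% of them, against 24.6% and 17.8% of all genes. At a mean of at least 10 CPM 39.8% and 31.4% of genes were called. *Shmt2* makes glycine and one-carbon units from serine in mitochondria. It held 558, 540 and 564 CPM in NG and 466, 402 and 460 in HG, and with CD200Fc 508, 518 and 546 in normal and 554, 548 and 557 in high glucose. All HG libraries were below all others, and HG+CD200Fc lay within the range of NG. *Shmt2* fell by 0.32 ± 0.054 in HG and rose by 0.32 ± 0.054 with CD200Fc (adjusted p = 7.06e-05 and 9.27e-05 by edgeR).

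*Mthfd2*, the next mitochondrial folate enzyme, held 183, 167 and 180 CPM in NG and 152, 139 and 141 in HG, and with CD200Fc 157, 162 and 172 in normal and 169, 155 and 166 in high glucose. It fell by 0.29 ± 0.057 in HG and rose by 0.18 ± 0.057 with CD200Fc (adjusted p = 0.000397 and 0.0265 by edgeR). The lowest HG+CD200Fc library was just above the highest HG library, and the rise was lost without library 2 (0.16) or 3 (0.17) of HG, and without library 1 (0.16) or 3 (0.17) of HG+CD200Fc. *Psat1*, the transaminase of the serine pathway, held 447, 418 and 441 CPM in NG and 376, 346 and 349 in HG, and with CD200Fc 402, 397 and 460 in normal and 416, 384 and 400 in high glucose. All HG libraries were below all others. It fell by 0.29 ± 0.058 in HG (adjusted p = 0.000536 by edgeR). Its rise with CD200Fc of 0.16 ± 0.058 was near the threshold (adjusted p = 0.0482 by edgeR) and was lost in 9 of 21 alternatives, with values of 0.14 to 0.17 there. These 9 were the fit of only the groups compared and those that left out any NG library, NG+CD200Fc library 1, HG library 2 or 3, and library 1 or 3 of HG+CD200Fc.

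*Psph*, the last enzyme of serine synthesis, had the largest fall of the members in HG. Its libraries held 64.4, 61.1 and 65.9 CPM in NG and 50.6, 40.7 and 43.5 in HG, and with CD200Fc 52.1, 51.9 and 65.5 in normal and 53.4, 45.7 and 53.1 in high glucose. HG and NG did not overlap, while NG+CD200Fc and HG+CD200Fc did. It fell by 0.50 ± 0.090 in HG (adjusted p = 0.000261 by edgeR), and was 0.18 ± 0.091 higher with CD200Fc (adjusted p = 0.216 by edgeR). The antisense neighbour *Cct6a* overlaps 10.4% of its exon bases and had 102515 counts against 16641 for *Psph*, and whether counting used strand is not stated in the sources used here. *Phgdh*, the first enzyme of serine synthesis, held 118, 108 and 116 CPM in NG and 104, 87.8 and 99.4 in HG, and with CD200Fc 99.2, 104 and 121 in normal and 101, 102 and 101 in high glucose. NG and HG were apart, and HG+CD200Fc lay inside the range of HG. Its fall of 0.23 ± 0.069 in HG (adjusted p = 0.014 by edgeR) was lost without NG replicate 1 (-0.22) or HG replicate 2 (-0.17). *Aldh1l2*, a mitochondrial folate dehydrogenase, held 11.3 to 16.1 CPM and passed no test. *D10Wsu102e* overlaps 14.1% of its exon bases on the other strand. Without HG replicate 2, 4 of these enzymes were called lower in HG, and 1 was called higher in HG+CD200Fc. Of all genes 1832 and 1557 were called in these directions.

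Of the 7 other amino acid enzymes 2 fell in HG, and 0 passed in HG+CD200Fc minus HG. The 2 are 28.6% of these enzymes, near the 24.6% of all genes that were called and below the 39.8% at a mean of at least 10 CPM. *Asns*, asparagine synthetase, held 166, 158 and 169 CPM in NG and 148, 133 and 148 in HG, and with CD200Fc 148, 149 and 169 in normal and 155, 139 and 147 in high glucose. *Got1*, the cytosolic aspartate transaminase, held 74.6, 78.8 and 74.1 CPM in NG and 71.2, 66.8 and 63.5 in HG, and with CD200Fc 80.6, 75.1 and 78.0 in normal and 75.6, 69.9 and 71.3 in high glucose. For both, NG and HG were apart and HG+CD200Fc overlapped HG. *Asns* fell by 0.20 ± 0.062 (adjusted p = 0.0183 by edgeR) and *Got1* by 0.18 ± 0.060 (adjusted p = 0.0338 by edgeR). *Got1* was the member just inside the threshold in HG minus NG, and *Gpt2*, a mitochondrial alanine transaminase, was just outside at 0.24 ± 0.096 (adjusted p = 0.0658 by edgeR). The fall of *Asns* was lost without NG replicate 3 (-0.20) or HG replicate 2 (-0.15). That of *Got1* was lost without HG library 2 (-0.17) or 3 (-0.15) or NG library 2 (-0.15), with upper quartile scaling (-0.15) and with no filter (-0.18). *Aldh18a1* and *Pycr1*, enzymes of proline synthesis, and *Cth* and *Cbs*, those of transsulfuration, passed no test in any comparison. *Gpt2* passed none in the main edgeR fit, but was called higher in HG than in NG in 5 alternatives (0.24 to 0.30). These were upper quartile scaling, the stricter filter, voom, the replicate block and HG replicate 2 left out.

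**Figure D2:**
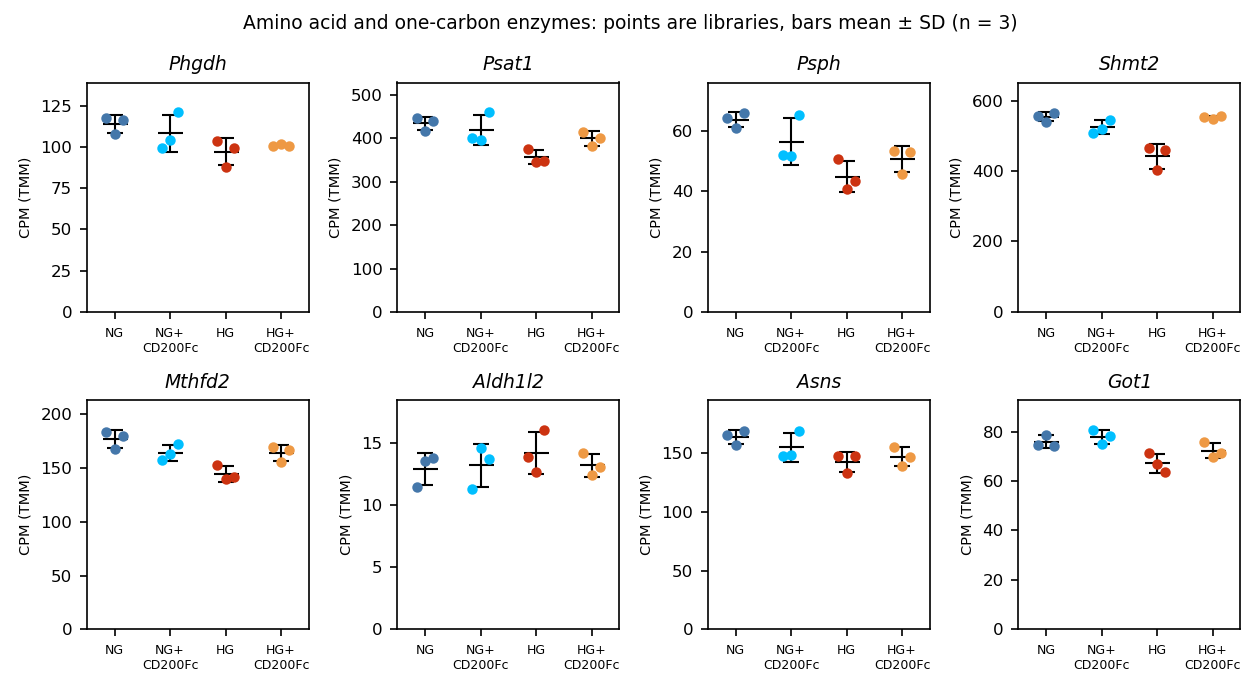
Expression of 8 amino acid and one-carbon enzyme genes in CPM on linear axes from 0, with 1 point per library and bars for the mean ± SD of 3 libraries, in the 4 groups. The HG libraries are the lowest for Shmt2 and Mthfd2, the HG+CD200Fc libraries of Shmt2 lie at the level of NG, and Aldh1l2 overlaps in all groups.

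Among the transcription factors, 1 of 6 tested passed in HG minus NG (16.7%, below the 24.6% of all genes and the 39.8% at a mean of at least 10 CPM). The factor that passed was *Atf4*. Its libraries held 469, 464 and 479 CPM in NG and 420, 363 and 400 in HG, and with CD200Fc 438, 434 and 471 in normal and 418, 417 and 412 in high glucose. HG lay below NG with no overlap, and HG+CD200Fc fell inside the range of HG. *Atf4* RNA fell by 0.26 ± 0.054 in HG (adjusted p = 0.000853 by edgeR), and HG+CD200Fc minus HG was 0.08 ± 0.054 (95% interval -0.03 to 0.19, adjusted p = 0.382 by edgeR). For *Slc7a5* the same difference had an interval of 0.62 to 0.86.

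*Atf5*, a related factor that induces mitochondrial chaperones, held 66.7, 70.1 and 68.9 CPM in NG and 68.0, 62.2 and 62.7 in HG, and with CD200Fc 70.0, 72.6 and 64.4 in normal and 70.3, 84.2 and 74.1 in high glucose. It was 0.24 ± 0.067 higher in HG+CD200Fc than in HG (adjusted p = 0.0113 by edgeR). Of the 6 transcription factors tested only *Atf5* passed there. This is 16.7%, below the 17.8% of all genes and the 31.4% at a mean of at least 10 CPM. The call rested on HG+CD200Fc replicate 2, the highest library, and without it the difference was 0.17 (adjusted p = 0.124 by edgeR). *Cebpb*, a C/EBP factor that partners ATF4 and drives inflammatory genes in macrophages, held 172, 183 and 178 CPM in NG and 193, 175 and 243 in HG, and with CD200Fc 168, 167 and 153 in normal and 222, 236 and 199 in high glucose. The HG libraries were spread wide, and those with CD200Fc were apart between the glucose levels. In HG+CD200Fc minus NG+CD200Fc *Cebpb* rose by 0.43 ± 0.096 (adjusted p = 0.0151 by edgeR), a call lost without NG+CD200Fc replicate 3 (0.38) or HG+CD200Fc replicate 2 (0.37) and with the length and GC trend removed (0.29). *Tmem189* overlaps 20.7% of its exon bases on the other strand and had 74058 counts against 58134. *Ddit3*, which encodes the stress factor CHOP, *Cebpg*, another ATF4 partner, and *Nupr1*, a stress-induced chromatin protein, passed no test in the main edgeR fit. Their means over the libraries were 24.1, 45.1 and 12.1 CPM. In HG+CD200Fc minus HG *Ddit3* was -0.23 ± 0.095 (adjusted p = 0.101 by edgeR). It was called lower there by voom (-0.26) and without HG replicate 2 (-0.31).

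The feedback and stress effectors did not share a direction. Of 7 tested, 3 rose and 1 fell in HG (57.1%, against 24.6% of all genes and 39.8% at a mean of at least 10 CPM). In HG+CD200Fc minus HG 0 rose and 1 fell (14.3%, below the 17.8% of all genes and the 31.4% at that level). *Ppp1r15a* encodes GADD34, the subunit that brings the phosphatase to eIF2 and ends the response. It held 104, 102 and 111 CPM in NG and 140, 129 and 133 in HG, and with CD200Fc 104, 109 and 98.0 in normal and 109, 114 and 104 in high glucose. Every HG library lay above all others. *Ppp1r15a* rose by 0.34 ± 0.059 in HG and fell by 0.30 ± 0.059 with CD200Fc (adjusted p = 8.88e-05 and 0.000478 by edgeR), the opposite directions to those of *Slc7a5* and *Shmt2*.

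*Sesn2*, a leucine sensor upstream of mTORC1, held 62.6, 65.4 and 70.0 CPM in NG and 72.9, 79.9 and 77.4 in HG, and with CD200Fc 69.1, 69.9 and 74.3 in normal and 80.7, 81.7 and 80.2 in high glucose. NG was below HG with no overlap. It rose by 0.22 ± 0.060 in HG (adjusted p = 0.00835 by edgeR). The rise was lost without NG replicate 1 (0.16) or HG replicate 3 (0.19) and with the length and GC trend removed (0.10). *Ddit4*, an inhibitor of mTORC1, held 2.75, 4.11 and 6.05 CPM in NG and 7.49, 6.36 and 6.19 in HG, and with CD200Fc 4.05, 3.57 and 4.72 in normal and 4.78, 5.26 and 4.81 in high glucose. The 3 NG libraries were spread wide, and the highest of them lay just below the lowest HG library. *Ddit4* rose by 0.63 ± 0.20 in HG (adjusted p = 0.0233 by edgeR), and the call was lost without NG replicate 1 (0.38), NG replicate 2 (0.60) or HG replicate 1 (0.52).

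*Eif4ebp1* encodes a repressor of cap-dependent translation that mTORC1 inactivates. It held 81.7, 79.5 and 79.7 CPM in NG and 67.5, 59.8 and 62.3 in HG, and with CD200Fc 61.7, 66.4 and 76.5 in normal and 59.8, 61.1 and 57.5 in high glucose. NG was above every other library. *Eif4ebp1* fell by 0.35 ± 0.068 in HG (adjusted p = 0.000441 by edgeR), and in NG+CD200Fc minus NG it was -0.23 ± 0.068 (unadjusted p = 0.00195, adjusted p = 0.816 by edgeR). *Trib3*, a pseudokinase that restrains ATF4, *Chac1*, which breaks down glutathione, and *Stc2* passed no test with TMM scaling and all libraries. The difference of *Trib3* in HG minus NG was 0.15 ± 0.070 (adjusted p = 0.114 by edgeR) and that of *Chac1* was -0.11 ± 0.099 (adjusted p = 0.461).

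**Figure D3:**
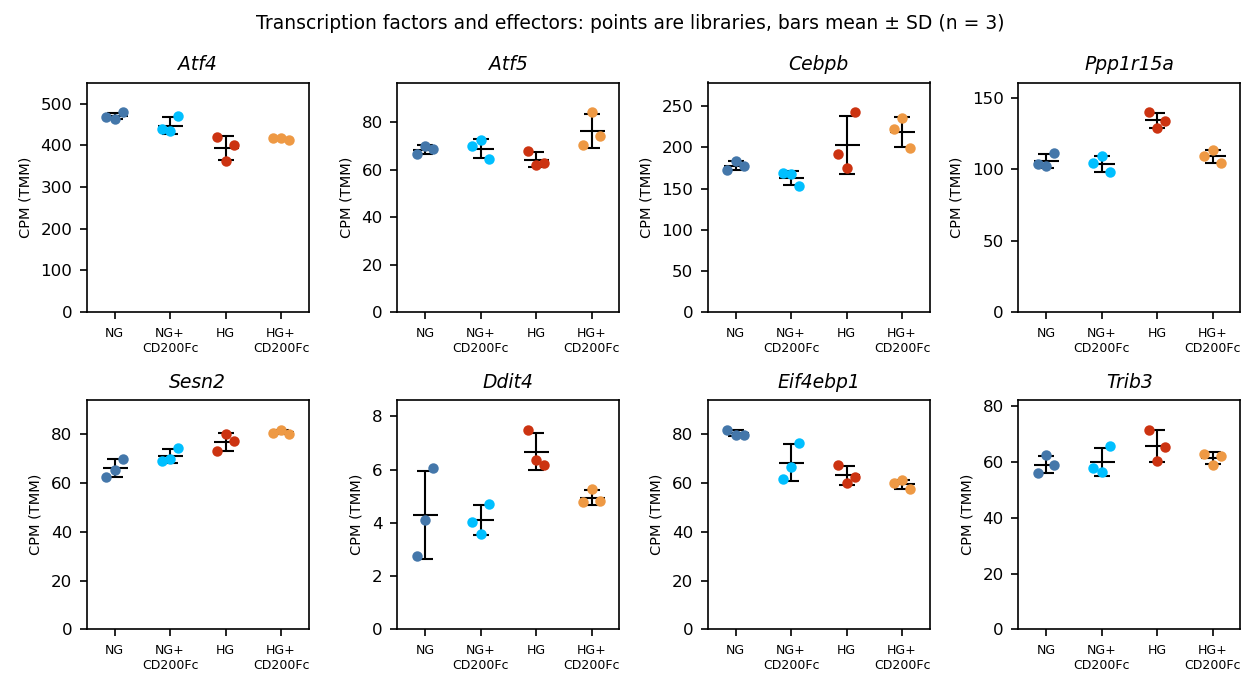
Expression of 3 transcription factor genes and 5 effector genes in CPM on linear axes from 0, with 1 point per library and bars for the mean ± SD of 3 libraries, in the 4 groups. Ppp1r15a is highest in the HG libraries, Eif4ebp1 is highest in the NG libraries, and the Atf4 libraries of HG and HG+CD200Fc lie below those of NG.

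Whether CD200Fc acted differently in the 2 glucose media was tested as an interaction, the CD200Fc difference in high glucose minus that in normal glucose. Of the 33 members 8 had a higher and 1 a lower difference in high glucose, where 7.2% of all genes tested were called, 3.62% higher and 3.58% lower. Among genes of at least 10 CPM 13.1% were called, and 31.0% of the 29 members at that level. The term was 0.70 ± 0.084 for *Slc7a5* (adjusted p = 2.62e-06 by edgeR), 0.49 ± 0.12 for *Slc1a4* (0.0134), 0.40 ± 0.077 for *Shmt2* (0.00117) and 0.39 ± 0.088 for *Slc1a5* (0.0055). For *Slc38a2* it was 0.31 ± 0.070, for *Slc3a2* 0.31 ± 0.075, for *Mthfd2* 0.29 ± 0.081 and for *Slc7a1* 0.28 ± 0.069. The only negative call, -0.27 ± 0.083 for *Ppp1r15a* (adjusted p = 0.0437 by edgeR), was lost in 11 alternatives, with values of -0.23 to -0.30 there, 9 of which left out a library: any NG library, NG+CD200Fc library 1 or 2, HG library 1 or 3, and library 1 or 3 of HG+CD200Fc. The *Slc1a4* and *Slc7a1* calls were lost without NG replicate 3 (0.45, 0.25), and that of *Mthfd2* without library 1 (0.27) or 3 (0.29) of NG, library 1 of NG+CD200Fc (0.27), library 3 of HG (0.29), and library 1 (0.27) or 3 (0.28) of HG+CD200Fc.

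In normal glucose CD200Fc gave no call among the members. In NG+CD200Fc minus NG, 0 of 33 members and 0% of all genes tested passed in edgeR, with the smallest adjusted p of a member at 0.816. Of the members 2 had an unadjusted p under 0.05, *Eif4ebp1* and *Nupr1*, and of all genes 5.98%. The libraries did not overlap for 2 of 33 members, and for 11.9% of all genes. DESeq2 and limma voom called 0 members as well, and 0 and 1 of all genes. For *Slc7a5* the difference was 0.04 ± 0.059, with a 95% interval of -0.08 to 0.16. The members' differences had a median of -0.05.

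In HG+CD200Fc minus NG+CD200Fc, 4 members rose and 0 fell, where 8.3% of all genes were called, 4.65% higher and 3.65% lower. Among genes with a mean of at least 10 CPM 15.8% were called, and 13.8% of the 29 members at that level. The 4 were *Slc7a5*, *Slc6a9*, *Slc1a5* and *Cebpb*. *Eif4ebp1* was called lower with no filter (-0.21) and without NG+CD200Fc replicate 1 (-0.28). *Sesn2* did not pass in the main fit (0.18 ± 0.060, adjusted p = 0.0541 by edgeR) but was called higher in 7 alternatives (0.18 to 0.22). *Gpt2* was called higher in 1 alternative (0.29). The libraries did not overlap for 12 of 33 members, and for 27.2% of all genes. *Slc1a5* was 0.20 ± 0.062 higher (adjusted p = 0.0448 by edgeR), a call lost in 12 of 21 alternatives, with values of 0.07 to 0.22 there. These were all 3 NG, all 3 NG+CD200Fc and all 3 HG+CD200Fc libraries left out in turn, HG replicate 3 left out, no filter, and the length and GC trend removed. At an unadjusted p under 0.05 there were 9 members, and 23.6% of all genes. *Shmt2* differed by 0.08 ± 0.054 (95% interval -0.03 to 0.19) and *Psph* by -0.16 ± 0.090 (-0.34 to 0.03). HG minus NG and HG+CD200Fc minus NG+CD200Fc share no library, and their medians over the members were -0.17 and 0.05. The sign was the same in both for 23 of 33 members, and the share over all genes was not computed. Among the members whose sign differed in the main fit were *Slc7a5*, *Slc3a2*, *Slc7a1*, *Slc38a2*, *Slc1a4*, *Slc1a5* and *Shmt2*. Leaving out HG replicate 2 gave 6 higher and 10 lower members in HG minus NG, 8 higher and 2 lower in HG+CD200Fc minus HG, and 8 higher and 1 lower for the interaction. Over all genes that setting called 1679 higher and 1832 lower, 1557 higher and 1591 lower, and 570 higher and 633 lower, in the same order.

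**Figure D4:**
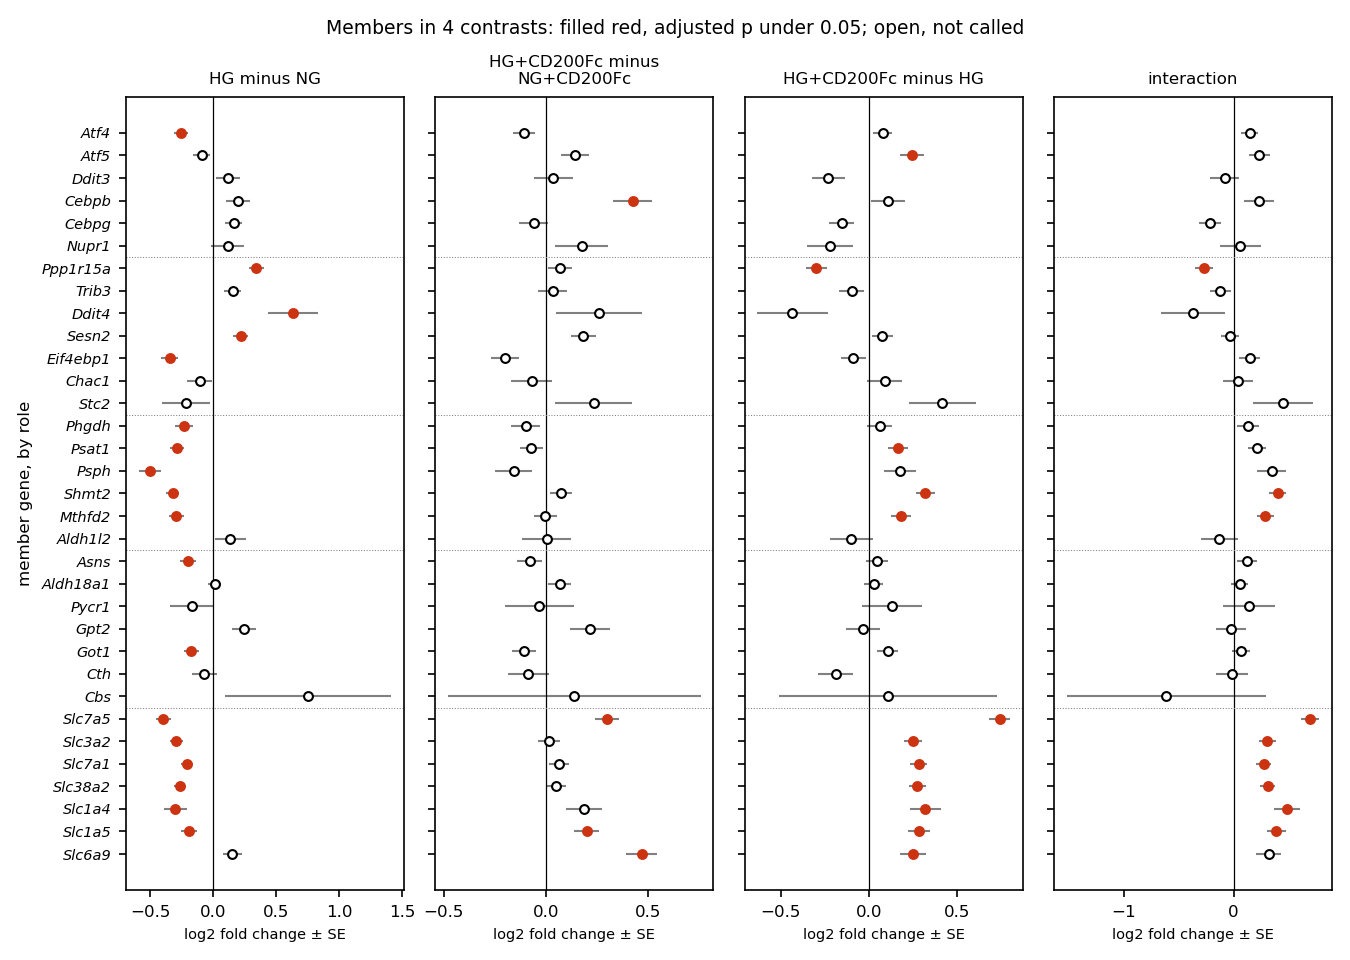
Model log2 fold changes ± SE of the 33 tested members, grouped by role, for HG minus NG, HG+CD200Fc minus NG+CD200Fc, HG+CD200Fc minus HG and their interaction, with filled red points for an adjusted p under 0.05. The transporters lie left of 0 in HG minus NG except Slc6a9, which is at 0 there with the length and GC trend removed, and right of 0 in the other panels, where Slc3a2 and Slc7a1 turn to -0.04 and -0.09 in HG+CD200Fc minus NG+CD200Fc with that trend removed.

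Other genes of the pathway were taken from lists that leave out the members, and some are in more than 1 list. Their shares are to be read against the 24.6% of all genes called in HG minus NG and the 17.8% in HG+CD200Fc minus HG, or 39.8% and 31.4% at a mean of at least 10 CPM. Of 23 cytosolic aminoacyl-tRNA synthetases and their partners, which load amino acids onto tRNA, 11 fell and 0 rose in HG, and 6 rose and 0 fell in HG+CD200Fc minus HG (47.8% and 26.1% called). Of 17 mitochondrial synthetases 3 fell and 0 rose in HG, and 3 rose and 0 fell in HG+CD200Fc minus HG (17.6% in each), below the share of all genes in both. *Tars*, the threonyl enzyme, had 296 ± 7.85 CPM (SD, n = 3) in NG and 245 ± 8.76 in HG, and with CD200Fc 281 ± 4.45 in normal and 286 ± 9.36 in high glucose. Among 21 genes for the eIF2 kinases, eIF2, eIF2B and the phosphatase, 9 fell and 1 rose in HG. *Eif2s1*, the subunit that is phosphorylated, had 143 ± 5.00 CPM in NG and 112 ± 3.45 in HG, and 111 ± 7.91 in HG+CD200Fc, a fall of 0.35 ± 0.059 in HG. The exception was *Eif2ak2*, the kinase that senses double-stranded RNA, which rose by 0.27 ± 0.065 in HG. In HG+CD200Fc minus HG 3 of the 21 rose and 2 fell. The shares called were 47.6% and 23.8%, and the second lies between the share of all genes and that at 10 CPM.

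Of 25 folate and one-carbon enzymes outside the members 11 fell and 4 rose in HG, and 11 rose and 3 fell in HG+CD200Fc minus HG (60% and 56% called). *Mat2a*, the enzyme that makes the methyl donor S-adenosylmethionine, had 164 ± 7.27 CPM in NG and 127 ± 0.979 in HG, and with CD200Fc 160 ± 5.99 in normal and 144 ± 0.833 in high glucose. Of 25 other amino acid transporters 6 fell and 4 rose in HG, and 5 rose and 3 fell in HG+CD200Fc minus HG. These shares of 40% and 32% are near those of all genes at 10 CPM. *Slc16a10*, a carrier of aromatic amino acids, had 179 ± 10.4 CPM in NG and 128 ± 3.32 in HG, and with CD200Fc 177 ± 1.20 in normal and 176 ± 8.87 in high glucose. *Slc15a3*, a lysosomal peptide carrier, went the other way, from 326 ± 5.91 in NG to 434 ± 20.6 in HG and 355 ± 12.1 in HG+CD200Fc. Of 26 other ATF4 targets and partners 6 rose and 4 fell in HG (38.5%, near the 39.8% of genes at 10 CPM). In HG+CD200Fc minus HG 6 rose and 4 fell as well (38.5%, against 31.4% at 10 CPM). The median log2 fold change of this list there was -0.03, against 0.11 over the members. *Atf3*, a stress factor induced by ATF4, had 176 ± 6.41 CPM in NG and 209 ± 6.14 in HG, and with CD200Fc 175 ± 8.71 in normal and 162 ± 3.55 in high glucose.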

How the data were processed

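RNA from BV2 cells was depleted of ribosomal RNA and sequenced on an Illumina NovaSeq, per the labels' protocols. The deposited table holds raw counts per gene, which the authors did not normalize, and STAR and featureCounts with GRCm38 are named in the submitters' processing notes. No source used here gives the annotation release or the strand setting. Of 55774 lines 287 repeats were dropped, and 99.5% of the IDs matched GENCODE M21, which gave coordinates and exon lengths. A deposited table of the authors' comparisons was not used.

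Genes were filtered with filterByExpr (19182 left) and scaled by TMM. A robust quasi-likelihood fit in edgeR 4.0.16 (R 4.3.3) took all 12 libraries together, with a mean for each of the 4 groups (biological coefficient of variation 0.0908). Benjamini-Hochberg adjustment was over all genes within each of 5 contrasts, with a threshold of 0.05. Standard errors are the log2 fold change divided by the square root of its F. Alternatives were other scalings and filters, DESeq2 1.42.0, voom in limma 3.58.1, removal of the trend with exon length and GC, a replicate block, fits of only the groups compared, and each library left out. With the trend removed, p came from a t-test of the remaining fold change over its edgeR standard error. Members that passed in any contrast were named with all values, the rest by ranges, and up to 4 genes per other list by p in HG minus NG. The members and lists were chosen with earlier results of these data known. Reads carry no molecular identifiers, so totals bear on counting error only.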

Additional observations from a re-analysis of the deposited data

Results flagged for a closer look

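For 9 members the difference made by CD200Fc was not the same in high and in normal glucose by the interaction term of the edgeR model (adjusted p under 0.05 over all genes), on the log2 scale. It was larger in high glucose for *Slc7a5* (0.70), *Slc1a4* (0.49), *Shmt2* (0.40), *Slc1a5* (0.39), *Slc3a2* (0.31), *Slc38a2* (0.31), *Mthfd2* (0.29) and *Slc7a1* (0.28). For *Ppp1r15a* the term was negative (-0.27). Its CD200Fc difference was -0.30 in high and -0.027 in normal glucose, with the same sign in both. The calls of *Slc7a5*, *Shmt2*, *Slc1a5*, *Slc3a2* and *Slc38a2* were kept in all 20 alternatives for the interaction. In all 9 the NG+CD200Fc minus NG difference did not pass its own test. This sets them apart from no other gene, since 0 of 19182 genes passed in that comparison. No group of 3 libraries was tested for outlying samples.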

How the results depend on the processing

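Of 43 member calls over the 5 contrasts, 24 were kept in every alternative (21, or 20 for the interaction), 19 were lost in at least 1 and 0 reversed. Of 208 counts recomputed, 193 were within 1.5 times the main count.

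In HG+CD200Fc minus NG+CD200Fc, 1593 genes and 4 members passed. Voom called 2597 genes, and with the length and GC trend removed 398 genes and 1 member passed. Leaving out 1 library gave 277 to 2288 genes and 2 to 5 members. The split of higher to lower calls there was 892 to 701, against 1115 to 494 with upper quartile scaling and 118 to 280 with the trend removed. In HG minus NG it was 2244 to 2476, against 2490 to 2126 with upper quartile scaling, 2409 to 2375 with the stricter filter and 1625 to 3240 with the trend removed, and for members 3 to 15, against 6 to 13 with upper quartile scaling. In NG+CD200Fc minus NG, where 0 genes passed, the unfiltered fit called 21, voom 1, the replicate block 2, the fit of only the groups compared 9, and leaving out 1 library 0 to 8, with 0 members in each. The interaction called 9 members, and 5 to 11 with 1 library left out.

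Deviations of same-numbered libraries of different groups correlated at -0.069 to 0.184 (median 0.032, against -0.017 for other numbers), with 5 of 18 over 0.1, and 21 of 36 comparisons were best with the own number. Not all being over 0.1, the numbers were not taken as pairs, though this is a hint from the data only. With a replicate block 19 members and 5258 genes passed in HG minus NG (18 and 4720 without it), 4 and 2314 in HG+CD200Fc minus NG+CD200Fc (4 and 1593), 12 and 3842 in HG+CD200Fc minus HG (12 and 3408) and 10 and 1723 for the interaction (9 and 1381), and *Cebpb* lost its call in the second (0.43, adjusted p = 0.0615 by edgeR). Members called in an alternative alone were *Gpt2*, *Trib3*, *Cebpg* and *Cebpb* in HG minus NG, *Sesn2*, *Eif4ebp1* and *Gpt2* in HG+CD200Fc minus NG+CD200Fc, *Ddit3*, *Psph* and *Cebpb* in HG+CD200Fc minus HG, and *Psph*, *Slc6a9*, *Psat1* and *Cebpb* for the interaction. The cause of these shifts was not tested. Depth limits *Cbs*, *Vldlr*, *Stc2* and *Ddit4*, which had few counts.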

Other observations

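Other genes of amino acid use and protein quality control are given as values. Of 32 tested genes of other amino acid metabolism 11 fell and 4 rose in HG minus NG, and 10 rose and 3 fell in HG+CD200Fc minus HG, at an adjusted p under 0.05 by edgeR. These are 46.9% and 40.6% of the list, against 24.6% and 17.8% of all genes and 39.8% and 31.4% of genes with a mean of at least 10 CPM. *Gclc*, the catalytic subunit of the first step of glutathione synthesis, had 129 ± 6.88 CPM (SD, n = 3) in NG and 87.0 ± 7.04 in HG, and with CD200Fc 123 ± 1.58 in normal and 119 ± 1.24 in high glucose. *Srm*, spermidine synthase, had 134 ± 2.87 CPM in NG and 97.0 ± 2.44 in HG, and with CD200Fc 134 ± 2.81 in normal and 141 ± 8.78 in high glucose. *Odc1*, ornithine decarboxylase, had 106 ± 8.36 CPM in NG and 71.8 ± 7.40 in HG, and with CD200Fc 103 ± 4.49 in normal and 96.7 ± 1.77 in high glucose. For all 3 genes HG had the lowest mean of the 4 groups.

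Of 25 genes of the ATF6 and IRE1 branches of the unfolded protein response 7 rose and 1 fell in HG minus NG, and 1 rose and 9 fell in HG+CD200Fc minus HG (32% and 40% called, the first of them below the share at 10 CPM). *Ern1*, which encodes the sensor IRE1, had 68.6 ± 5.30 CPM in NG and 96.5 ± 10.0 in HG, and with CD200Fc 73.0 ± 0.530 in normal and 84.3 ± 2.89 in high glucose. *Edem1*, a protein of endoplasmic reticulum degradation, was the gene that fell in HG, with 321 ± 5.24 CPM in NG and 252 ± 10.1 in HG, and with CD200Fc 314 ± 6.25 in normal and 311 ± 3.12 in high glucose. Of 35 genes of amino acid sensing and mTORC1 5 rose and 5 fell in HG minus NG, and 4 rose and 4 fell in HG+CD200Fc minus HG, and these shares of 28.6% and 22.9% lie between those of all genes and those at 10 CPM.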
